A study of Mus musculus with 9 samples.

Results

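The respiratory chain and the ATP synthase were followed in 2 lines of mouse prostate epithelial cells, wild-type and Rb-/-, through the 103 probe sets whose gene symbol starts with Nduf, Sdha to Sdhd, Uqcr, Cox4 to Cox8 or Atp5, or is Cyc1 or Cycs. They stood for 75 of the 8251 genes named on the array, which held 12422 probe sets. The choice used gene names and no measured value. The study measured total RNA on 9 single-channel arrays in 4 groups. The wild-type line in RPMI-1640 medium with 5% fetal bovine serum gave 3 arrays, and the same line after 48 hours without serum gave 2. The Rb-/- line in medium with serum gave 2 arrays, and after 48 hours without serum it gave 2. Rb-/- means that the line lacks working copies of Rb1, the gene of the retinoblastoma protein, which restrains E2F transcription factors and entry into the cell cycle. The labels name 1 line for each genotype and do not say whether repeat arrays came from separate cultures, so p-values measure only the spread between arrays and a difference between genotypes is a difference between these lines.

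Electrons from NADH enter the chain at complex I, and those from succinate enter at complex II, which is also an enzyme of the citric acid cycle. Both hand electrons to ubiquinone, complex III passes them to the soluble carrier cytochrome c, and complex IV, cytochrome c oxidase, gives them to oxygen. The proton gradient built on the way drives complex V, the ATP synthase. Most subunits are encoded in the nucleus, and several complex IV subunits come as pairs of isoforms with different tissue patterns. The array's members held 38 probe sets (29 genes) for complex I, 4 (4 genes) for complex II, 9 (8 genes) for complex III, 1 for cytochrome c, 23 (15 genes) for complex IV and 22 (14 genes) for complex V. The symbol rule also took in 6 probe sets (4 genes) for the assembly factors Ndufaf1, Ndufaf4, Sdhaf1 and Sdhaf2.

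Nuclear respiratory factor 1 (NRF1) is a transcription factor known for binding palindromic GC-rich sites in promoters of respiratory chain genes. Promoters from RefSeq, 250 bases before to 50 after the gene start in the mouse build GRCm38.p6, were found for 57 of the 71 genes that could be tested, with 62 promoters in all. The letters GCGCA and GCGC with any single base between them, searched on both strands, occurred in 13 of these 62 promoters (21%) and in 4.6% of all 32851 promoters of the same length. The shorter spelling GCATGCGC, which overlaps the longer one where the free base is T, occurred in 17.7% of the members' promoters and in 2.71% of all. The 250 bases before the start of 4 members are shown with these letters in capitals. They were picked after their values were seen, as genes with higher signal in the Rb-/- line that hold the letters.
Cycs, chr6:50566570-50566819, minus strand: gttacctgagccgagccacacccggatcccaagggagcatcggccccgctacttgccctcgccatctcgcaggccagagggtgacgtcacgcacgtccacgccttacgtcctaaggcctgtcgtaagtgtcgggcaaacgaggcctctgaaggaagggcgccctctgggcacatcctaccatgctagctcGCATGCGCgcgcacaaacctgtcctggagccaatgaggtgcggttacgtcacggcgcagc
Sdha, chr13:74350241-74350490, minus strand: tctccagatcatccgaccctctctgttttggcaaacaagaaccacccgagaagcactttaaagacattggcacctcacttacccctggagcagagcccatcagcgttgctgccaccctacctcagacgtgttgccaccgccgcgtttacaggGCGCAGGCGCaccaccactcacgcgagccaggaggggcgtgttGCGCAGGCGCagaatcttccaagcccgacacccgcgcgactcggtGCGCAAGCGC
Ndufa8, chr2:36049339-36049588, minus strand: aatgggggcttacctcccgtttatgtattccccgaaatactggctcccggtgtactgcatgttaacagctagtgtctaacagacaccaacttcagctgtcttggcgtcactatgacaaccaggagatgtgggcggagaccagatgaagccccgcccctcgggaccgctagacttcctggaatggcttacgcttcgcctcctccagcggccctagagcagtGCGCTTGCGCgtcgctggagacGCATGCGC
Atp5g2, chr15:102671048-102671297, minus strand: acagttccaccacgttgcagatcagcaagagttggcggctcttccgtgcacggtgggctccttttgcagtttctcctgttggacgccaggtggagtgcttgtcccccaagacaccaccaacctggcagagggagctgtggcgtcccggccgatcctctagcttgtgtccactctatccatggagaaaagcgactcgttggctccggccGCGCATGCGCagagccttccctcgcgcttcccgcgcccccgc
The Sdha promoter held 3 copies of the longer spelling, whereas Cycs held the shorter one. Other letters were searched the same way. CCGGAAG, the core of sites for ETS factors such as GABP, was in 29% of the members' promoters against 8.86% of all, and AAGATGGC, a spelling of YY1 sites, was in 11.3% against 2.75%. CACGTG, the E-box of Myc and related factors, was in 9.68% against 7.15%. The E2F spellings TTTCCCGC, TTTGGCGC, TTTCGCGC and TTTGCCGC were found in 1 member promoter (1.61%), against 2.26% of all. A match describes letters in the window and is not evidence of binding.

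Intensities were quantile normalized, and values under 196.67, the percentile 25 of all values, were raised to that floor. Of the 103 probe sets, 85 (71 genes) lay above the floor on at least 2 arrays and were tested, and 18 were not. Ndufa12, Ndufs4, Cox5a and the muscle isoform gene Cox7a1 had no tested probe set. On the deposited scale the array medians lay between 444.8 and 473.8. All 7 epithelial marker genes, Krt8, Krt18, Krt5, Krt14, Krt19, Epcam and Cdh1, had a probe set above the floor on every array, and Krt8 ranged from 7821 to 10470. The leukocyte marker Ptprc, the smooth muscle markers Acta2 and Myh11 and the heart marker Myh6 were below the floor on every array. Of the other marker lists, 2 of 3 endothelial, 1 of 3 leukocyte, 3 of 5 muscle and fibroblast, 1 of 2 neuroendocrine and 2 of 3 heart and skeletal muscle genes were above it on every array. The Rb1 probe set 97948_at read 368 to 714 on wild-type arrays and 109.5 to 171 on Rb-/- arrays, all of the latter below the floor. The highest Rb1 value was on the wild-type serum 1 array, which stood apart from its group. Its rank correlation was 0.974 and 0.969 with the other 2 wild-type serum arrays, which correlated at 0.995 with each other. Among the 24 members that differed at least 1.3-fold between the lines without serum, 20 departed on this array towards the Rb-/- side. The reference was the mean of the other 2 wild-type serum arrays. The same share over all probe sets was not computed, so this describes the array and is no result about the members. Counts are therefore given with and without this array.

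Higher in the Rb-/- line were 10 of 20 tested probe sets of the ATP synthase (50%) and 3 of 9 of complex III (33.3%). The probe set of cytochrome c and 2 of 4 of complex II were higher too, and Uqcrb and Cycs led. Complex I had 7 of 30 higher (23.3%) and 6 lower (20%). In complex IV 6 of 16 were lower (37.5%), led by Cox6b2 on 2 probe sets. On the deposited scale 5 were higher and 4 lower there. These shares stand against 21.8% higher and 23.4% lower over all probe sets. The difference averaged over both media was tested with limma, and adjusted p-values throughout are Benjamini-Hochberg values over all 9686 tested probe sets, with 0.05 as the threshold. Of the 85 members, 27 (31.8%) were higher in the Rb-/- line and 14 (16.5%) were lower. Over all probe sets, 21.8% were higher and 23.4% lower. The median difference was 0.08 on the log2 scale over members and -0.05 over all tested probe sets. By gene, 24 of 71 were higher on at least 1 probe set, 13 were lower and none was called in both directions. Single members ran from a log2 difference of -1.09 to 0.91. Arrays of the lines did not overlap over both media for 25 of the 41 called members (61%) and for 49.3% of all called probe sets. In bulk RNA, fewer cells of a type and less RNA per cell cannot be told apart.

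The balance of higher and lower calls depended on the scaling. Higher members made up 65.9% of the called ones after quantile normalization, 85.4% on the values as deposited (41 higher, 7 lower) and 84.8% after scaling to a common median (39 higher, 7 lower). As deposited, 28.1% of all probe sets were higher and 12.5% lower, with medians of 0.17 over members and 0.01 over all. Without the wild-type serum 1 array, 41 members were higher and 20 lower, against 26.9% and 35.7% of all probe sets. Of the 41 calls, 29 passed whichever array was left out, and 34 passed under both other scalings.

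**Figure D1:**
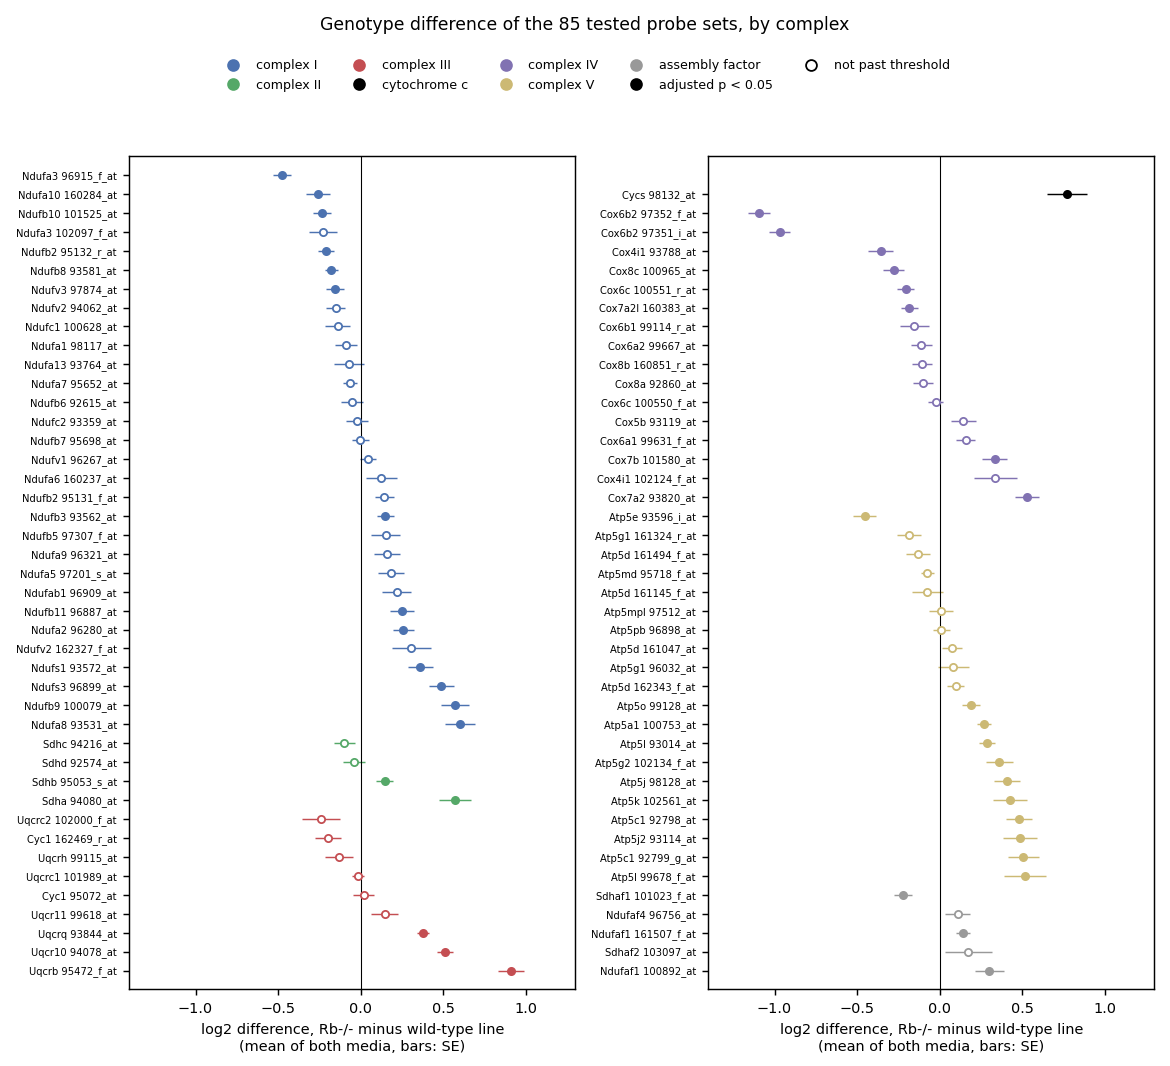
Log2 difference between the Rb-/- and wild-type lines, averaged over both media, for each of the 85 tested probe sets (points, with SE as bars), coloured by complex and filled where the adjusted p is under 0.05. Complex V points lie mostly to the right of 0 and Cox6b2 lies farthest to the left, at -1.09 and -0.97.

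In complex I, 7 of 30 tested probe sets (23.3%) were higher in the Rb-/- line and 6 (20%) were lower, close to the 21.8% and 23.4% of all probe sets, with a median of 0.02. As deposited these counts were 15 and 2, and without the wild-type serum 1 array they were 14 and 8. The highest was Ndufa8, an accessory subunit facing the intermembrane space, whose promoter is shown above. The normalized intensity of Ndufa8 was 1394, 1156 and 1025 on wild-type arrays with serum, 1011 and 1049 on wild-type arrays without, 1552 and 1634 on Rb-/- serum and 1865 and 1665 on Rb-/- serum-free arrays. The 4 Rb-/- arrays lay above all 5 wild-type arrays. The difference was 0.60 (SE 0.09, adjusted p = 0.00078), a 1.52-fold difference. Ndufb9, an accessory subunit of the membrane arm, differed by 0.57 (SE 0.09, adjusted p = 0.000807). Ndufb9 read 2080.1, 1919 and 1699 on wild-type arrays with serum and 2103 and 2487 without it, and in the Rb-/- line 2504 and 2921 with serum and 3782 and 3309.5 without. Rb-/- arrays were again above all wild-type arrays, by a narrow margin between wild-type serum-free 2 and Rb-/- serum 1.

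Ndufs3, a core subunit of the arm that reaches into the matrix, was higher by 0.49 (SE 0.07, adjusted p = 0.000873). On wild-type arrays Ndufs3 gave 1227, 1139 and 1027 with serum and 1056 and 1219.7 without, and on Rb-/- arrays 1417 and 1459 with serum and 1838 and 1667 without. The lines did not overlap. Ndufs1, which carries iron-sulfur clusters that take electrons from NADH, was higher by 0.36 (SE 0.08, adjusted p = 0.00478), with wild-type serum 1 above Rb-/- serum-free 2. Intensities of Ndufs1 were 1322, 1138 and 1094 with serum and 999.9 and 977 without it in wild-type cells, and 1326 and 1529.5 with serum and 1400.1 and 1304 without it in Rb-/- cells. Ndufv1, the flavin-bearing subunit that binds NADH, differed by 0.05 (SE 0.05, adjusted p = 0.479) and did not pass. Ndufa2, another accessory subunit, was higher by 0.26 (SE 0.06, adjusted p = 0.00901), with no overlap of the lines.

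The lowest complex I member was Ndufa3, an accessory subunit of the membrane arm, on probe set 96915_f_at. The Ndufa3 (96915_f_at) signal was 3595, 3273 and 3630.1 in wild-type cells with serum, 3589.9 and 3529 after withdrawal, and 2319 and 2386, then 2887 and 2572, in the Rb-/- line. All Rb-/- arrays lay below all wild-type arrays. The difference was -0.48 (SE 0.05, adjusted p = 0.000158), a 1.39-fold lower level in the Rb-/- line. A second Ndufa3 probe set, 102097_f_at, gave -0.23 (SE 0.08, adjusted p = 0.0501), which did not pass. Both Ndufa3 probe sets carry a suffix for possible hybridization to related transcripts. Ndufb10, Ndufb8 and Ndufb2 (95132_r_at), all accessory subunits of the membrane arm, were lower by small amounts. Ndufb8 differed by -0.18 (SE 0.04, adjusted p = 0.00513), Ndufb10 by -0.23 (SE 0.06, adjusted p = 0.00865) and Ndufb2 by -0.21 (SE 0.05, adjusted p = 0.00672). None of these 3 passed on the values as deposited, where their adjusted p-values were 0.846, 0.587 and 0.838. A second Ndufb2 probe set, 95131_f_at, had a difference of 0.14 (SE 0.06, adjusted p = 0.0679).

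Complex II had 4 tested members, and the flavin-bearing catalytic subunit Sdha had the largest difference of them. The normalized intensity of Sdha was 358, 292 and 255 on wild-type arrays with serum, 262 and 303 on wild-type arrays without, 422 and 405 on Rb-/- serum and 469.8 and 427 on Rb-/- serum-free arrays. Every Rb-/- array was above every wild-type array. Sdha was 1.48-fold higher in the Rb-/- line, by 0.57 (SE 0.10, adjusted p = 0.00167). Sdhb, the iron-sulfur subunit, was higher by 0.15 (SE 0.05, adjusted p = 0.042), with overlapping lines. Its call was lost without any array other than wild-type serum 1 or Rb-/- serum-free 2, with adjusted p-values of 0.0602 to 0.135. The membrane anchors Sdhc and Sdhd differed by -0.10 (SE 0.06, adjusted p = 0.217) and -0.04 (SE 0.07, adjusted p = 0.662), and neither passed.

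In complex III, 3 of 9 probe sets were higher and none was lower. As deposited the count was 5 higher, and without the wild-type serum 1 array it was 4 higher and 1 lower. The largest difference among all members that were higher belonged to Uqcrb, a subunit near the ubiquinone site. Uqcrb read 1751, 1558 and 1498 on wild-type arrays with serum and 1186 and 1483 without it, and in the Rb-/- line 2853 and 3051 with serum and 2609 and 2483 without. The lowest Rb-/- value exceeded the highest wild-type value by a wide margin. Uqcrb was 1.88-fold higher, by 0.91 (SE 0.08, adjusted p = 3.23e-05). This probe set carries a suffix for possible hybridization to related transcripts.

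Uqcr10 and Uqcrq, 2 of the small subunits, were higher too. On wild-type arrays Uqcr10 gave 3666, 3335 and 3419.8 with serum and 3030.4 and 3383 without, and on Rb-/- arrays 4673 and 4673 with serum and 4812 and 4864 without. All Rb-/- arrays were above all wild-type arrays for Uqcr10. Uqcr10 differed by 0.51 (SE 0.05, adjusted p = 6.11e-05). Intensities of Uqcrq were 5454, 5868 and 5546 with serum and 6849 and 6825 without it in wild-type cells, and 6799 and 6983 with serum and 9284 and 9585 without it in Rb-/- cells. For Uqcrq the Rb-/- serum arrays overlapped with the wild-type serum-free arrays. Its genotype difference was 0.38 (SE 0.04, adjusted p = 5.73e-05). The core subunit Uqcrc1, a structural part of the complex, differed by -0.01 (SE 0.04, adjusted p = 0.77) and did not pass here. Its direction turned with the scaling, to 0.18 as deposited (adjusted p = 0.0128) and 0.15 with a common median (0.0303). The heme-bearing Cyc1 gave 0.02 (SE 0.06, adjusted p = 0.821) on 95072_at and -0.20 (SE 0.08, adjusted p = 0.0646) on 162469_r_at, and neither passed.

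Cytochrome c itself, encoded by Cycs, was among the members with the largest differences. The Cycs signal was 518, 349.7 and 341 in wild-type cells with serum, 188 and 194 after withdrawal, and 564 and 599.9, then 408 and 371, in the Rb-/- line. Rb-/- arrays were above wild-type arrays within each medium, but the wild-type serum 1 array lay above the Rb-/- serum-free arrays. The averaged difference was 0.77 (SE 0.12, adjusted p = 0.000905). Both wild-type serum-free arrays were under the floor, so without serum the level was at least 1.98-fold higher in the Rb-/- line, with a floored difference of 0.99 (SE 0.18, adjusted p = 0.00371). With the floor at the percentile 40 this comparison no longer passed (adjusted p = 0.318). With serum the difference was 0.56 (SE 0.16, adjusted p = 0.0341), and it lost its call without any 1 array other than wild-type serum 1, with adjusted p-values of up to 0.214.

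**Figure D2:**
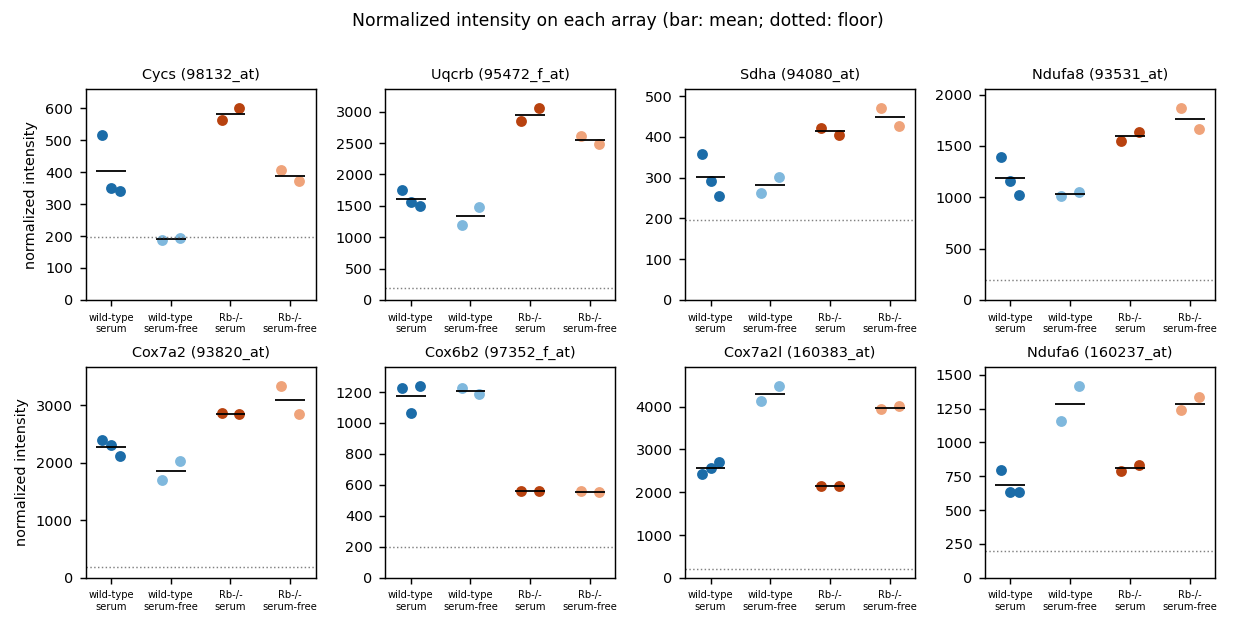
Normalized intensity (vertical axis, linear, from 0) on each array for 8 members; points are arrays, bars are group means and the dotted line is the floor of 196.67. Uqcrb and Cox6b2 separate the lines in both media, Cycs is lowest on the wild-type serum-free arrays, and Cox7a2l and Ndufa6 are high on the serum-free arrays of both lines.

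In complex IV, 2 of 16 probe sets were higher in the Rb-/- line and 6 were lower, with a median of -0.11. As deposited 5 were higher and 4 lower, with a median of -0.04, and without the wild-type serum 1 array 5 were higher and 7 lower. No test was made of the difference between complexes. Cox6b2, known as the testis isoform of subunit 6b, had the largest difference of all members. The normalized intensity of Cox6b2 (97352_f_at) was 1226, 1063 and 1236 on wild-type arrays with serum, 1225 and 1188 on wild-type arrays without, 563 and 558 on Rb-/- serum and 558 and 552 on Rb-/- serum-free arrays. The Rb-/- values were tightly grouped at less than the lowest wild-type value. On this probe set Cox6b2 was 2.13-fold lower, with a log2 difference of -1.09 (SE 0.07, adjusted p = 3.05e-06), and on 97351_i_at it differed by -0.97 (SE 0.06, adjusted p = 4.61e-06). Cox6b2 (97351_i_at) read 374, 397 and 375 on wild-type arrays with serum and 413 and 455 without it, and in the Rb-/- line 219 and 189.6 with serum and 131 and 221 without. On 97351_i_at the second Rb-/- serum array and the first Rb-/- serum-free array were under the floor. Both probe sets carry suffixes for related or incomplete matches, and the third, 160813_r_at, was below the floor on all arrays. The widely expressed isoform Cox6b1 differed by -0.15 (SE 0.09, adjusted p = 0.183) and did not pass.

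Among the other isoform pairs, Cox8c, the testis isoform of subunit 8, was lower, with a difference of -0.28 (SE 0.06, adjusted p = 0.0074). It did not pass as deposited (adjusted p = 0.164) or after scaling to a common median (0.0879). A second Cox8c probe set, 161475_f_at, was below the floor on all 9 arrays, and whether the first measures this transcript was not tested. The general isoform Cox8a and the heart and muscle isoform Cox8b gave -0.10 (SE 0.06, adjusted p = 0.208) and -0.11 (SE 0.06, adjusted p = 0.178). For subunit 6a, the general Cox6a1 gave 0.16 (SE 0.06, adjusted p = 0.0551) and the muscle Cox6a2 gave -0.11 (SE 0.06, adjusted p = 0.173). None of these 4 passed.

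Cox7a2, the general isoform of subunit 7a, was higher in the Rb-/- line. On wild-type arrays Cox7a2 gave 2402, 2318 and 2126 with serum and 1698 and 2032 without, and on Rb-/- arrays 2865 and 2848 with serum and 3331 and 2849.6 without. All Rb-/- arrays exceeded all wild-type arrays. Cox7a2 differed by 0.53 (SE 0.07, adjusted p = 0.000542), a 1.44-fold change. Cox7b, a small structural subunit, was higher by 0.33 (SE 0.08, adjusted p = 0.0071), with wild-type serum 1 above Rb-/- serum-free 2. Cox4i1, a subunit that takes part in regulation by ATP, gave opposite signs on its 2 probe sets. It was lower on 93788_at, with -0.36 (SE 0.07, adjusted p = 0.00435), and on 102124_f_at it gave 0.34 (SE 0.13, adjusted p = 0.0609). Cox5b, which binds zinc on the matrix side, differed by 0.14 (SE 0.08, adjusted p = 0.149) and did not pass. Cox6c was lower on 100551_r_at, with -0.21 (SE 0.05, adjusted p = 0.0124). That call did not pass without wild-type serum-free 1 (adjusted p = 0.0512), whereas 100550_f_at gave -0.02 (SE 0.05, adjusted p = 0.69).

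In complex V, 10 of 20 probe sets were higher in the Rb-/- line and 1 was lower, with a median of 0.14. The counts were 11 and 1 as deposited and 11 and 3 without the wild-type serum 1 array. Atp5a1, the alpha subunit of the catalytic head, had little spread within groups. Intensities of Atp5a1 were 4089, 4272 and 4062 with serum and 4041 and 4231 without it in wild-type cells, and 4876 and 4998 with serum and 4885 and 5173 without it in Rb-/- cells. The lines did not overlap. Atp5a1 was 1.2-fold higher, by 0.27 (SE 0.04, adjusted p = 0.00085). Atp5c1, the gamma subunit that turns inside the head, was higher on both probe sets, by 0.48 (SE 0.08, adjusted p = 0.00118) on 92798_at and 0.51 (SE 0.10, adjusted p = 0.00267) on 92799_g_at. The Atp5c1 (92798_at) signal was 2175, 2192 and 1897 in wild-type cells with serum, 1704 and 2047 after withdrawal, and 2768 and 3176, then 2652 and 2475, in the Rb-/- line. Every Rb-/- array was above every wild-type array on 92798_at.

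Of the subunits of the membrane part and the stalks, Atp5l, subunit g of the membrane part, was higher by 0.29 (SE 0.05, adjusted p = 0.0017) on 93014_at and by 0.52 (SE 0.13, adjusted p = 0.0106) on 99678_f_at. The second of these calls was lost without Rb-/- serum 2 (adjusted p = 0.0555) and without Rb-/- serum-free 1 (0.0566). Atp5j, coupling factor 6 of the outer stalk, was higher by 0.41 (SE 0.08, adjusted p = 0.00266), and Atp5j2, subunit f, by 0.49 (SE 0.10, adjusted p = 0.00457). The normalized intensity of Atp5j2 was 256, 186 and 143 on wild-type arrays with serum, 133 and 162 on wild-type arrays without, 290.2 and 292 on Rb-/- serum and 328 and 246 on Rb-/- serum-free arrays. Atp5j2 was under the floor on 4 wild-type arrays, and wild-type serum 1 lay above Rb-/- serum-free 2. It thus entered the test through the Rb-/- arrays, where it is high. The filter favoured its higher call, which is counted among those of complex V. Atp5k, subunit e, was higher by 0.43 (SE 0.10, adjusted p = 0.00901), and Atp5o, the subunit that confers oligomycin sensitivity, by 0.19 (SE 0.05, adjusted p = 0.0201). The Atp5o call was lost without wild-type serum-free 1 (adjusted p = 0.0716), Rb-/- serum 2 (0.0881) and Rb-/- serum-free 1 (0.0656). Not called were Atp5pb, subunit b of the outer stalk, at 0.01 (SE 0.05, adjusted p = 0.888), and 2 small membrane subunits, Atp5md at -0.07 (SE 0.04, adjusted p = 0.16) and Atp5mpl at 0.01 (SE 0.07, adjusted p = 0.932).

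Of the genes for the rotating c-ring, Atp5g2 was higher by 0.36 (SE 0.08, adjusted p = 0.00597) on 102134_f_at. That probe set carries a suffix for possible hybridization to related transcripts. The other Atp5g2 probe set, 92570_at, has no suffix and was below the floor on all arrays. It read 173.7 to 191.7 on wild-type and 159.7 to 174.3 on Rb-/- arrays, so it was not seen to be higher. Atp5g2 (102134_f_at) read 1449, 1185 and 1189 on wild-type arrays with serum and 1291 and 1327 without it, and in the Rb-/- line 1404 and 1559 with serum and 1971 and 1743 without. Its lines overlapped with serum, through wild-type serum 1 and Rb-/- serum 1, and separated without serum. Atp5g1 gave 0.08 (SE 0.10, adjusted p = 0.492) on 96032_at and -0.19 (SE 0.07, adjusted p = 0.0581) on 161324_r_at, and neither passed. The 1 lower member of complex V was Atp5e, the epsilon subunit at the foot of the head. Its probe set, 93596_i_at, carries a suffix for related or incomplete matches. On wild-type arrays Atp5e gave 2015, 1890.0 and 1756 with serum and 1709.9 and 1862 without, and on Rb-/- arrays 1419.8 and 1293 with serum and 1390.1 and 1254 without. All Rb-/- arrays were below all wild-type arrays. Atp5e was 1.37-fold lower, with a log2 difference of -0.45 (SE 0.07, adjusted p = 0.000703). None of the 4 tested probe sets of Atp5d, the delta subunit next to it, passed, with adjusted p-values of 0.14 to 0.526.

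Probe sets of the same gene did not always give the same answer. Of the 12 genes with several tested probe sets, 6 had averaged differences of opposite sign, and 4 were called on every probe set in the same direction, namely Cox6b2 (lower) and Atp5c1, Atp5l and Ndufaf1 (higher). For Ndufaf1, an early complex I assembly factor, 161507_f_at entered the test only through the 2 Rb-/- serum-free arrays, the only ones above the floor, so its call is no support for the other. Both Ndufaf1 calls were lost without several arrays, with adjusted p-values of up to 0.0823. A further 10 probe sets matched several genes, at least 1 of them by the symbol rule, and were left out. Of these, 9 were tested, and 5 were higher and 1 lower, between -0.26 and 0.50.

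Promoter letters can be set beside these calls as a description. The longer NRF1 spelling was in the promoter window of 6 of the 18 higher genes with a promoter, 0 of the 10 lower genes and 6 of the 29 genes that were not called. CCGGAAG was in 6, 2 and 10 of them.

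**Figure D3:**
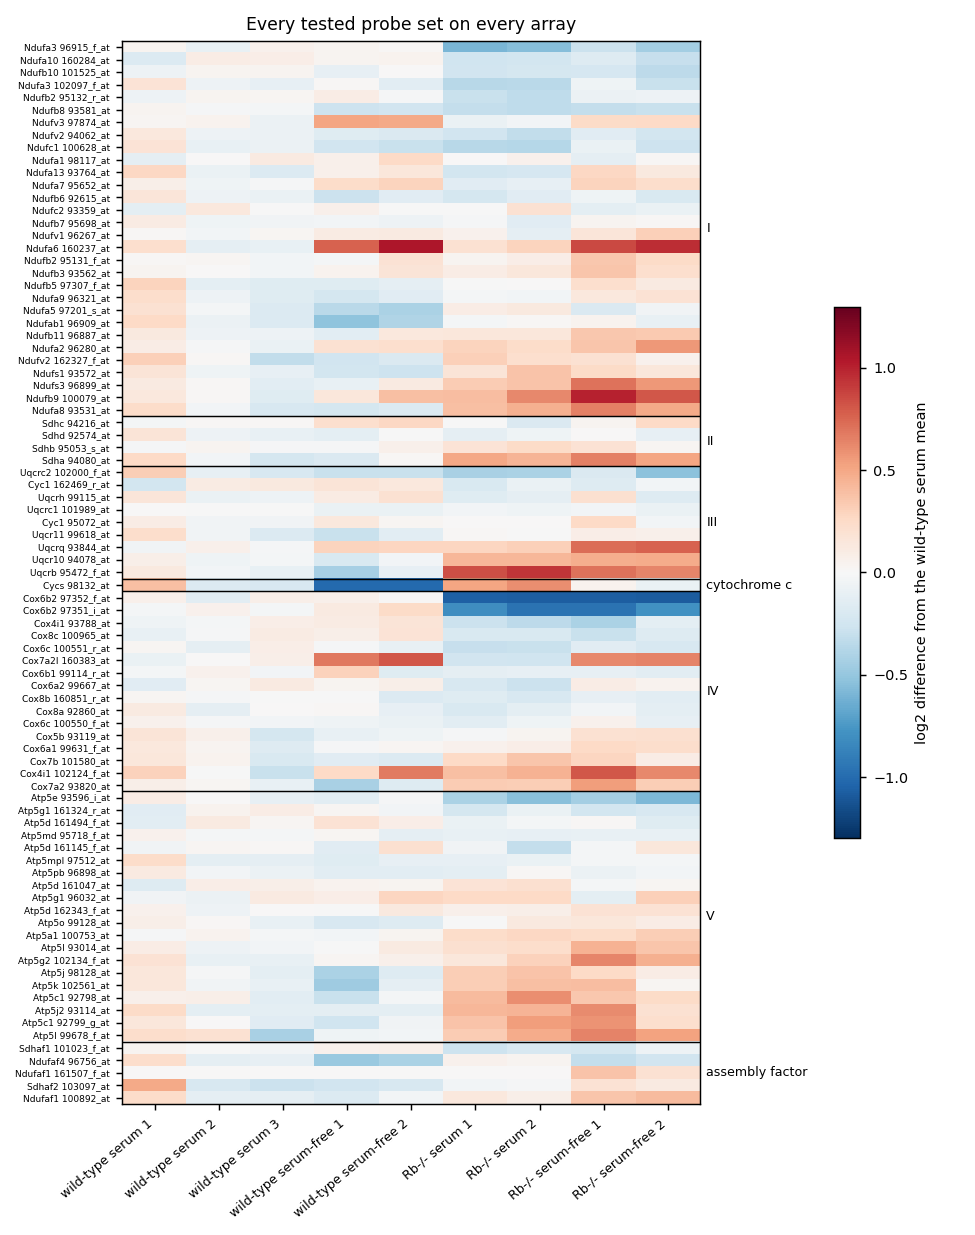
Log2 difference of every tested probe set (rows, by complex) from the wild-type serum mean on each of the 9 arrays (columns), red for higher and blue for lower. The Rb-/- columns are blue for Cox6b2 and red for Uqcrb, and the wild-type serum 1 column differs from the other 2 of its group in many rows.

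With serum, 15 members (17.6%) were higher in the Rb-/- line and 12 (14.1%) were lower, against 13.2% and 10.4% of all probe sets. Without serum, 26 (30.6%) were higher and 7 (8.24%) lower, against 16.8% and 13.9%. When the assembly factors were left out, these were 24 of 80 (30%) and 7 (8.75%). Within a medium the lines did not overlap for any called probe set on the array, so this says nothing more about the members. In both media alike 15 members (17.6%) were higher and 4 (4.71%) lower, against 9.87% and 6.76% of all probe sets, and none was called in opposite directions. Over the 85 members the differences in the 2 media, which share no arrays, had a Pearson correlation of 0.872 and a Spearman correlation of 0.818, given as a description since members share arrays. The same values over all tested probe sets were 0.807 and 0.743.

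Complex I contributed 3 higher and 6 lower members with serum, and 7 higher and 2 lower without it. Complex V had 6 higher and 1 lower with serum, and 10 higher and 1 lower without it. Uqcrb, Uqcr10 and Uqcrq of complex III were higher in both media. Uqcrb differed by 0.88 (SE 0.11, adjusted p = 0.000455) with serum and by 0.94 (SE 0.12, adjusted p = 0.000579) without it. Cox6b2 (97352_f_at) differed by -1.07 (SE 0.09, adjusted p = 4.71e-05) and -1.12 (SE 0.10, adjusted p = 7.05e-05). These calls of complex III and Cox6b2 passed whichever array was left out. Without serum, those of Ndufa8, Ndufs3, Cycs and Cox7a2 did too. Ndufa8 then differed by 0.78 (SE 0.13, adjusted p = 0.00312), Ndufs3 by 0.63 (SE 0.11, adjusted p = 0.00352) and Cox7a2 by 0.73 (SE 0.11, adjusted p = 0.00155). With serum, those of Ndufa3 (96915_f_at) and Ndufb8 did, at -0.57 (SE 0.07, adjusted p = 0.000632) and -0.32 (SE 0.05, adjusted p = 0.00231). The Ndufb8 call with serum was lost as deposited, with a difference of -0.14 (adjusted p = 0.199), and with a common median (0.136).

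Counts within a medium leaned on single arrays. With serum they became 29 higher (34.1%) and 19 lower (22.4%) without wild-type serum 1, against 21.6% and 23.5% of all probe sets. Without Rb-/- serum 2 they were 3 higher (3.53%) and 4 lower (4.71%), against 5.18% and 3.31%, so that the members' share of higher calls then lay under that of all probe sets. Without Rb-/- serum 1 they were 5 and 5 (5.88% each), against 5.82% and 4.79%. Dropping wild-type serum 2 or serum 3 left 6 higher (7.06%), against 9.02% and 9.54% of all, and dropping either wild-type serum-free array left 9 higher (10.6%), against 11.2%. In serum-free medium they became 7 higher (8.24%) and 3 lower (3.53%) without wild-type serum-free 1, against 7.6% and 3.97% of all, and 9 (10.6%) and 4 (4.71%) without Rb-/- serum-free 1, against 8.24% and 4.64%. Without wild-type serum 1 there were 12 lower (14.1%, against 28% of all), and without wild-type serum-free 2 there were 4 lower (4.71%, against 4.76%). Higher members made up 55.6% of the called ones with serum (83.3% as deposited, 81.8% with a common median). Without serum they made up 78.8% (92.7% and 91.4%). The members' median difference with serum was -0.07 against the wild-type serum 1 array and 0.06 against the other 2.

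Few members were called after serum withdrawal for 48 hours in either line. With 2 or 3 arrays in a group this does not show that the others were unchanged. In the wild-type line 5 members rose and 5 fell (5.88% each), against 6.61% and 9.25% of all probe sets, with a median of -0.04 over members and 0.05 over all. The Rb-/- line had 7 that rose (8.24%) and 0 fell, against 7.5% and 6.42% of all probe sets, with medians of 0.08 and 0.00. The 7 include Ndufaf1 (161507_f_at), which entered the test only through the 2 Rb-/- serum-free arrays. Without the assembly factors, 6 of 80 rose (7.5%). A total of 21 of the 85 members had an unadjusted p under 0.05 in the wild-type line, against 2707 of all 9686 probe sets. The Rb-/- line had 19 such members, against 2346 of all probe sets. With array weights 3 members fell there (3.53%, against 10.3% of all). Cox7a2l, Ndufa6, Ndufa7, Ndufv3 and Uqcrq (5.88% of members) rose in both lines, against 3.72% of all probe sets. In both lines 4.39% of all probe sets fell, and in this fit no member fell in both or was called in opposite directions. In this fit no complex V or complex II member was called in either line. Without wild-type serum 1, 2 of 20 in complex V rose and 1 fell in the Rb-/- line. Of all probe sets 12.5% and 10.8% did so. Array weights gave the same 2 and 1 counts there, against 12.2% and 10.3% of all. They also gave 2 complex V members that fell and 1 complex II member that rose in the wild-type line, against 13.5% and 13.9%.

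Cox7a2l, named for its likeness to subunit 7a and known for joining complexes III and IV into supercomplexes, had the largest rise of the Rb-/- line. Intensities of Cox7a2l were 2417, 2575 and 2697 with serum and 4131 and 4475 without it in wild-type cells, and 2149 and 2143 with serum and 3940.4 and 4013 without it in Rb-/- cells. In both lines the serum-free arrays lay far above the serum arrays. The rise was 0.75 (SE 0.07, adjusted p = 9.98e-05) in the wild-type line and 0.89 (SE 0.07, adjusted p = 7.15e-05) in the Rb-/- line. Both passed whichever array was left out. Its averaged genotype difference was -0.18 (SE 0.05, adjusted p = 0.0158), which did not pass as deposited (adjusted p = 0.956) or without wild-type serum-free 2 (0.0624), Rb-/- serum 1 (0.0522), Rb-/- serum 2 (0.0545) or Rb-/- serum-free 1 (0.0501).

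Ndufa6, an accessory subunit of complex I, rose by 0.90 (SE 0.12, adjusted p = 0.00126) in the wild-type line. The Ndufa6 signal was 793, 632 and 637 in wild-type cells with serum, 1159.6 and 1414 after withdrawal, and 787 and 833, then 1241 and 1333, in the Rb-/- line. Serum-free arrays were above serum arrays in both lines. The Rb-/- rise was 0.67 (SE 0.14, adjusted p = 0.0109). That call failed when any of the 4 Rb-/- arrays was dropped, at adjusted p-values of 0.0976 and 0.0766 without the first and second serum array and of 0.0586 and 0.0915 without the first and second serum-free array. Ndufv3, a small accessory subunit, rose by 0.50 (SE 0.07, adjusted p = 0.00173) and 0.32 (SE 0.08, adjusted p = 0.0286). The normalized intensity of Ndufv3 was 1020.3, 1033 and 949 on wild-type arrays with serum, 1426 and 1409 on wild-type arrays without, 944 and 973 on Rb-/- serum and 1193 and 1197 on Rb-/- serum-free arrays. The groups did not overlap within either line. The Rb-/- call was lost without any of 6 arrays, all but the wild-type serum arrays, at adjusted p-values of 0.0512 to 0.166. Ndufa7, a further accessory subunit, rose by 0.27 (SE 0.06, adjusted p = 0.0137) and 0.39 (SE 0.06, adjusted p = 0.00394), and the wild-type call was lost without wild-type serum-free 1 (adjusted p = 0.0622) or 2 (0.127).

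Uqcrq of complex III rose by 0.28 (SE 0.05, adjusted p = 0.00404) in the wild-type line and by 0.45 (SE 0.05, adjusted p = 0.000619) in the Rb-/- line, both whichever array was left out. On the deposited scale its wild-type adjusted p was 0.0576. In the Rb-/- line Ndufv1 rose by 0.26 (SE 0.07, adjusted p = 0.0444) and Ndufaf1 (161507_f_at) by 0.28 (SE 0.06, adjusted p = 0.0145). The Ndufv1 call was lost in 7 of the 9 fits that left out an array, at adjusted p-values of up to 0.34, and that of Ndufaf1 without Rb-/- serum 1 (0.0847) or serum 2 (0.0948). This Ndufaf1 probe set entered the test only through the 2 Rb-/- serum-free arrays, so a rise there was built in and its call supports nothing. It was lost with the floor at the percentile 10 (adjusted p = 0.339) and in a fit of the Rb-/- arrays alone (0.0784).

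The members that fell in the wild-type line were Cycs, Ndufab1, Ndufa5, Ndufb8 and the assembly factor Ndufaf4. Cycs fell to under the floor on both serum-free arrays, at least 2.01-fold, with a floored difference of -1.01 (SE 0.16, adjusted p = 0.00274). This call passed whichever array was left out but not with the floor at the percentile 40 (adjusted p = 0.332) or in a fit of the wild-type arrays alone (0.0505). The Cycs difference of the Rb-/- line was -0.58 (SE 0.18, adjusted p = 0.0608), which did not pass. It was called lower there as deposited (-0.64) and with a common median (-0.60). The same held with the replicate block, with array weights and without wild-type serum 1. Ndufab1, the mitochondrial acyl carrier protein that is also a complex I subunit, fell by 0.46 (SE 0.12, adjusted p = 0.0283) in the wild-type line and gave -0.02 (SE 0.13, adjusted p = 0.975) in the Rb-/- line. Ndufab1 read 3470.0, 2749 and 2572 on wild-type arrays with serum and 2016 and 2208 without it, and in the Rb-/- line 2857 and 2942 with serum and 3006 and 2717 without. In the wild-type line its groups did not overlap, while in the Rb-/- line they did. Without wild-type serum-free 1 its adjusted p was 0.221 and without wild-type serum-free 2 it was 0.115, and without each Rb-/- array it was 0.0562 to 0.0647. Ndufb8 fell by 0.26 (SE 0.05, adjusted p = 0.00884), Ndufa5 by 0.38 (SE 0.10, adjusted p = 0.037) and Ndufaf4 by 0.45 (SE 0.10, adjusted p = 0.0161). These 3 calls were each lost without wild-type serum-free 1 (adjusted p = 0.0688, 0.152 and 0.14) and without wild-type serum-free 2 (0.052, 0.227 and 0.0965). The Ndufa5 call was also lost without wild-type serum 2 (0.0777) and each Rb-/- array (0.063 to 0.078).

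**Figure D4:**
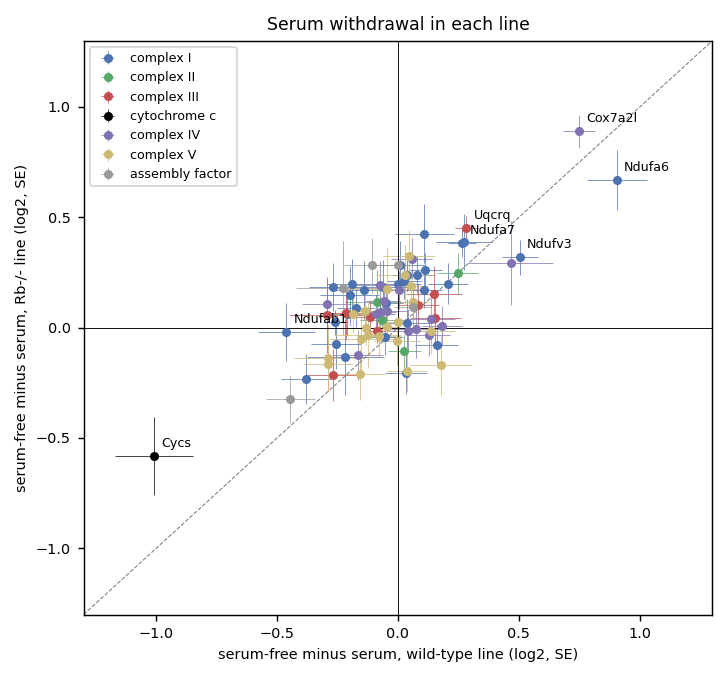
Log2 difference between serum-free and serum medium in the wild-type line (horizontal) and the Rb-/- line (vertical), each point a tested probe set with its SE, coloured by complex, with the line of equality dashed. Cox7a2l and Ndufa6 lie at the upper right (0.75 and 0.89, 0.90 and 0.67) and Cycs at the lower left (-1.01 and -0.58).

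The counts of members that changed on withdrawal also leaned on single arrays. In the wild-type line 8 rose (9.41%) without wild-type serum 1, against 9.63% of all probe sets. There 1 member fell (1.18%) when either serum-free array of that line was dropped, against 4.4% and 4.5% of all, and 3 fell (3.53%) when any 1 of the Rb-/- arrays was dropped, against 7.01% to 8.02%. For the Rb-/- line, 15 rose (17.6%) and 4 fell (4.71%) without wild-type serum 1, against 12.5% and 10.8% of all probe sets. In that line 1 fell without wild-type serum 3, 3 rose when either Rb-/- serum array was dropped (3.53%, against 3.32% and 2.08% of all) and 4 rose without Rb-/- serum-free 2 (4.71%, against 4.32%). Members that rose were 50% of the called ones in the wild-type line (33.3% as deposited, 55.6% with a common median) and 100% in the Rb-/- line (75% under both). Over the 85 members the withdrawal differences of the 2 lines, which share no arrays, had a Pearson correlation of 0.704 and a Spearman correlation of 0.476, and 47 (55.3%) had the same sign. Over all tested probe sets these were 0.691, 0.48 and 61.6%.

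Whether withdrawal acted differently in the lines was tested as an interaction, the difference in the Rb-/- line minus that in the wild-type line. With limma 0 of the 85 members passed, against 0.929% of all probe sets. An unadjusted p under 0.05 was found for 10 of the 85 members and for 1059 of all 9686 probe sets. With array weights and with no filter on low values 1 member passed, against 4.1% and 0.62% of all probe sets. The differences were positive for 65 members and negative for 20, and for 4344 and 5341 of all probe sets. Their median was 0.13 over members and -0.02 over all probe sets. Without the wild-type serum 1 array the members' median was 0.07. The highest was Ndufc1, a small complex I subunit, at 0.45 (SE 0.15, adjusted p = 0.261). On wild-type arrays Ndufc1 gave 1955, 1612 and 1638 with serum and 1455 and 1417 without, and on Rb-/- arrays 1349 and 1332 with serum and 1625 and 1430.5 without. Its Rb-/- serum arrays were the lowest, and its wild-type serum arrays overlapped only with Rb-/- serum-free 1. Cycs gave 0.43 (SE 0.24, adjusted p = 0.564) and Ndufab1 gave 0.44 (SE 0.18, adjusted p = 0.404). A call in the wild-type line alone, as for Ndufab1 and, in some fits only, Cycs, was thus not shown to differ between the lines.

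Other mitochondrial genes were read from 6 lists with the averaged genotype difference, against the same 21.8% higher and 23.4% lower over all probe sets. Of 20 probe sets for assembly factors of the chain, 8 were higher and 3 lower (median 0.20). Surf1, an assembly factor of complex IV, was higher by 0.61 (SE 0.06, adjusted p = 3.88e-05). The lowest called gene of this list was Cox16. Its call was lost as deposited (adjusted p = 0.23) and without any 1 array outside the wild-type serum group (0.0527 to 0.135). Of 28 for protein import, 16 were higher and 5 lower (median 0.26). Timm8a1, a small chaperone of the intermembrane space, was higher by 1.04 (SE 0.07, adjusted p = 6.54e-06), and Tomm40, the channel of the outer membrane, was lower, with -0.61 (SE 0.06, adjusted p = 0.00011). Of 70 for the mitochondrial ribosome, which translates the subunits encoded in mitochondrial DNA, 34 were higher and 6 lower (median 0.20). Its extremes were Mrpl20, at 1.15 (SE 0.08, adjusted p = 7.45e-06), and Mrps12, at -0.49 (SE 0.07, adjusted p = 0.000555).

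Of 20 probe sets for the citric acid cycle with pyruvate dehydrogenase, 5 were higher and 5 lower (median 0.06). Pdhb, a pyruvate dehydrogenase subunit, gave 0.46 (SE 0.08, adjusted p = 0.00186), and Dlst, of the 2-oxoglutarate dehydrogenase complex, gave -0.55 (SE 0.14, adjusted p = 0.0133). The Dlst call was lost without wild-type serum-free 1 (adjusted p = 0.0503), wild-type serum-free 2 (0.056), Rb-/- serum 2 (0.0546) and Rb-/- serum-free 1 (0.0654). Of 23 for carriers, shuttles and porins, 5 were higher and 5 lower (median 0.02). Gpd2, the glycerol phosphate shuttle enzyme that feeds electrons to ubiquinone, gave 0.93 (SE 0.08, adjusted p = 2.27e-05), and the dicarboxylate carrier Slc25a10 gave -0.35 (SE 0.06, adjusted p = 0.00229). Of 23 for regulators of mitochondrial biogenesis, 7 were higher and 2 lower (median 0.05). Myc was higher by 1.12 (SE 0.14, adjusted p = 0.000328). Yy1 gave -0.28 (SE 0.06, adjusted p = 0.00626), which did not pass as deposited (adjusted p = 0.141).

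As deposited, higher and lower counts were 10 and 0 for assembly factors, 18 and 2 for import, 44 and 2 for the ribosome, 10 and 3 for the citric acid cycle, 6 and 1 for carriers and 10 and 1 for regulators, against 28.1% and 12.5% of all probe sets. Without wild-type serum 1 they were 12 and 5, 19 and 5, 45 and 10, 7 and 5, 7 and 7, and 10 and 4 in the same order. Of all probe sets 26.9% were then higher and 35.7% lower. Hccs, the enzyme that attaches heme to cytochrome c, was higher on 160573_at by 0.58 (SE 0.10, adjusted p = 0.00158) and gave 0.32 (SE 0.14, adjusted p = 0.0811) on 102007_at. In the wild-type line it fell on withdrawal on both probe sets, as Cycs did, by 0.56 and 0.81 on the log2 scale (adjusted p = 0.0214 and 0.0168). No probe set of these lists passed in the interaction, so for Hccs too a difference between the lines was not shown. Hccs was picked after its values were seen.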

How the data were processed

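The authors deposited linear intensity values from 9 single-channel arrays, with 1 value for each probe set. Per the labels the RNA was total RNA. The software, summary method and scaling behind them are not stated in those labels. No detection calls were used, so the floor stood in for detection. Columns were assigned by their sample labels, and symbols came from the platform annotation (10833 probe sets with 1 gene, 396 with several, 1193 unnamed).

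Values were quantile normalized, floored at the percentile 25 of all values (196.67) and taken to log2. Probe sets above the floor on at least 2 of 9 arrays were tested, 9686 for 7063 genes. A single fit of 4 group means used limma 3.58.1 in R 4.3.3 with an intensity trend, 5 residual and 4.2 prior degrees of freedom, two-sided tests and Benjamini-Hochberg adjustment over all probe sets tested. The fit was tested on simulated data. The number of arrays limits the precision.

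Named members were the fixed subunits and isoforms and, within each complex, the highest and lowest called probe set of each comparison. Others are named in the text with their values. The members, lists and tests were chosen with earlier results of these data known. Alternatives were the deposited scale, a common median, other floors, no filter, no variance trend, a replicate block, array weights, only the groups compared, and leaving out each array.

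Replicate numbers were not used to pair the arrays in the single fit. Deviations of same-numbered arrays from their group means correlated at -0.231 to 0.331, and 2 of 12 pairs were over 0.1. In a group of 2 arrays the deviations mirror each other. The pairs are therefore not separate checks and cannot decide whether the numbers pair the arrays. Levels were not compared between probe sets.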

Additional observations from a re-analysis of the deposited data

How the results depend on the processing

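Counts of called members were recomputed under each alternative, except that the averaged difference and the interaction use all groups and so had no fit of only the groups compared. Percentages here are the members' share against that of all probe sets. For the averaged genotype difference, leaving out 1 array gave 20 to 41 members higher and 10 to 20 lower. The 20 higher were 23.5% against 16.9%, and the 10 lower were 11.8% against 14.3%. The deposited values gave 41 (47.7% against 28.1%) and 7 (8.14% against 12.5%), and a common median gave 7 lower (8.14% against 16.8%). With serum, leaving out 1 array gave 3 to 29 higher and 4 to 19 lower. There, 5 were higher with no filter (4.85% against 8.08%) and 6 with the replicate block (7.06% against 9.25%). With array weights 33 were higher (38.8% against 25.7%), and with only the groups compared 7 (8.24% against 8.78%). Of these, only with array weights did the members' share lie above that of all probe sets. Lower with serum were 4 on the deposited values (4.65% against 6.64%) and 4 with a common median (4.65% against 7.59%). Array weights gave 21 lower (24.7% against 31.5%), and only the groups compared gave 6 (7.06% against 6.76%). Without serum, leaving out 1 array gave 7 to 36 higher and 3 to 12 lower. No filter gave 16 higher (15.5% against 9.98%). Lower were 3 on the deposited values (3.49% against 6.49%), 3 with a common median (3.49% against 9.5%) and 11 with array weights (12.9% against 23.4%). On withdrawal in the wild-type line, leaving out 1 array gave 4 to 8 that rose and 1 to 5 that fell. The deposited values gave 3 that rose (3.49% against 3.64%) and array weights 11 (12.9% against 13.9%). Those that fell were 3 with the floor at the percentile 40 (3.95% against 10.5%) and 2 with no filter (1.94% against 5.32%). Array weights gave 8 that fell (9.41% against 13.5%), and only the groups compared gave 1 (1.18% against 4.66%). In the Rb-/- line, leaving out 1 array gave 3 to 15 that rose and 0 to 4 that fell. Array weights gave 16 that rose (18.8% against 12.2%). Those that fell were 2 on the deposited values (2.33% against 7.37%) and 2 with a common median (2.33% against 6.06%). The replicate block gave 1 (1.18% against 6.22%), array weights 3 (3.53% against 10.3%) and only the groups compared 2 (2.35% against 6.55%). The interaction had 1 call with no filter (0.971% against 0.62%) and 1 with array weights (1.18% against 4.1%), and 0 whichever array was left out. The array weights did not reach their convergence tolerance. With the replicate number as a block, averaged calls were 23 higher (27.1% against 19.8%) and 16 lower (18.8% against 18.3%). The block moved no other count by over 1.5 times than those given. Uqcrc1 reversed in the averaged difference, to 0.18 on the deposited values (adjusted p = 0.0128) and 0.15 with a common median (adjusted p = 0.0303). Of 62 called values of the named members, 35 passed whichever array was left out and 31 under every alternative. Over all alternatives the related lists had 6 to 12 higher and 0 to 5 lower for assembly factors, 14 to 19 and 2 to 6 for import, and 28 to 45 and 2 to 12 for the ribosome. Apart from the changes that follow from fewer arrays or other probe sets tested, the cause was not tested. Signal close to the floor limits Cycs, Atp5j2, Cox6b2 (97351_i_at) and Ndufaf1 (161507_f_at), whose genotype differences are understated where an array lies under it. The floor also gives such arrays the same value and so removes spread between them, which can make their p-values too small.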
